A study of Mus musculus with 75 samples.

Results

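The genes described here encode tubulins, the proteins that help fold tubulin, stathmins, and the kinesin and dynein motors, in mouse gastrocnemius, a calf muscle. Members were all genes of the expression table whose symbol names an alpha, beta or gamma tubulin, a tubulin cofactor A to E, stathmin 1 to 4, a kinesin heavy chain of the Kif or Kifc series, or a dynein subunit of the Dync or Dynl series. This gave 69 of 13856 genes. The rule reads gene symbols only, but it was chosen with earlier results of these data known. By role they were 5 alpha tubulins, 7 beta tubulins, 2 gamma tubulins, 5 tubulin cofactors, 3 stathmins, 4 subunits of dynein-1, 4 subunits of dynein-2, 10 dynein light chains, 6 mitotic kinesins and 23 other kinesins.

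Muscle of male and female BALB/c mice was sequenced as bulk RNA. Control mice were injected with phosphate-buffered saline and given saline (PBS-Saline; 7 female and 8 male libraries). All other mice carried tumours on both sides. These grew from C26, a colon carcinoma line of the mouse that is widely used to model muscle wasting. From day 12 they received saline (C26-Saline; 7 female, 8 male), 5-fluorouracil (C26-5FU; 8 and 8), paclitaxel (C26-PTX; 7 and 6) or cisplatin (C26-Cisplatin; 6 and 8). Each drug was given at 75% of the maximum tolerated dose in 2 cycles, and muscle was taken at day 25. No group received a drug without a tumour, so a drug effect is always a difference between tumour-bearing groups. The 73 libraries held an estimated 11.4 M to 40.5 M counts (median 22.5 M). Values are the authors' normalised log2 expression values. The labels do not say which animals shared a cage or a preparation day, so p-values reflect only how these libraries vary. In bulk muscle, fewer cells of a type and less RNA per cell cannot be told apart.

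Microtubules are hollow polymers of alpha and beta tubulin dimers. Gamma tubulin seeds them, the cofactors fold and assemble the dimers, and stathmins bind free dimers and promote disassembly. Most kinesins walk to the plus end of a microtubule and dynein walks to the minus end. In muscle fibres this transport places nuclei, mitochondria and vesicles, and dense microtubules are a feature of fibres under stress. Paclitaxel binds beta tubulin inside the polymer and stabilises it. 5-Fluorouracil disturbs nucleotide synthesis and cisplatin crosslinks DNA. Cells adjust tubulin mRNA to the pool of free dimers: while a tubulin is being translated, its first residues are recognised, with the factor Ttc5, and the mRNA is degraded when free dimers are in excess.

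That control reads the start of the tubulin coding sequence, so the starts of the members the results turn on are shown first. The first 30 coding bases come from the GENCODE vM21 transcripts (GRCm38), 5′ to 3′, with the first 4 codons in capitals. The last 2 lines are members outside the alpha and beta families, for contrast.
Tuba4a: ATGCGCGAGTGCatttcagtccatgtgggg
Tuba8: ATGAGGGAATGCatatcggtccatgtgggt
Tuba1b: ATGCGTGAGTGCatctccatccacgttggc
Tuba1c: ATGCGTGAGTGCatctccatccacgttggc
Tubb4b: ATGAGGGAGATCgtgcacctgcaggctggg
Tubb5: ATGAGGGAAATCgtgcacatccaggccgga
Tubb2a: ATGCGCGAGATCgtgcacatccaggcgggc
Dynll2: ATGTCTGACCGGaaggcagtgatcaagaac
Stmn4: ATGACTCTTGCAgcctataaggagaagatg
Tubb6, Kif5b and Kif20a were not examined. In all 11 alpha and beta tubulins that were, the start codon was followed by an arginine codon and a glutamate codon. None of the other 55 members examined began this way. Tuba1b and Tuba1c were identical over the 30 bases, and Tuba1a, Tuba1b and Tuba1c were 97.2 to 98.3% identical over the coding sequence. The same held for Tubb2a and Tubb2b (96.5%), Tubg1 and Tubg2 (93.3%), Kifc1 and Kifc5b (98.2%), and Dynlt1a, Dynlt1c and Dynlt1f (100%). Values of these genes are uncertain one by one, since reads shared by copies are divided between them.

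The muscle expressed a narrow set of tubulins. Per kilobase of transcript, the highest level among members in female PBS-Saline muscle was that of Tuba4a (log2 level per kilobase 8.22). Kif1c, a kinesin of vesicle transport, stood at 7.96, Tubb4b at 6.94, the dynein light chain Dynll2 at 6.88 and Tuba8 at 6.64. Tuba4a was 65.7 ± 2.28% (SD, n = 7) of alpha tubulin mRNA per length in female and 69.0 ± 1.44% (SD, n = 8) in male PBS-Saline muscle. Tuba8 was 22.0 ± 1.05% and 20.3 ± 1.02% in the same groups. Tubb4b was 77.4 ± 1.04% of beta tubulin mRNA in females and 78.6 ± 1.93% in males, and Tubb5 followed at 9.73 ± 1.03% and 8.95 ± 0.973%. These shares describe the mRNAs; protein was not measured.

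**Figure D1:**
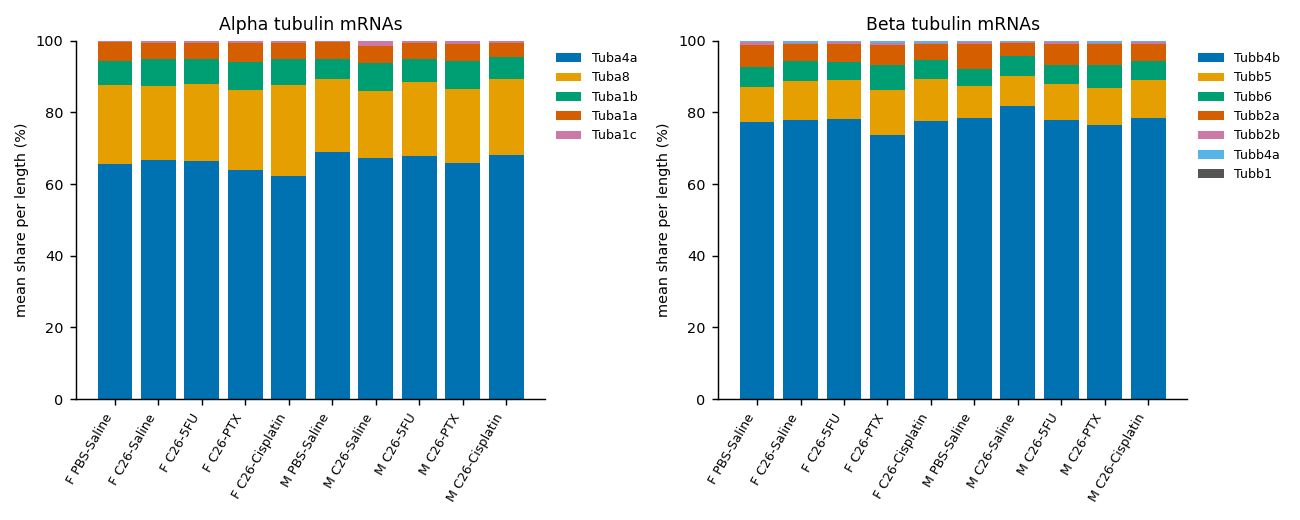
Mean share of each alpha tubulin (left) and beta tubulin (right) mRNA in its family per transcript length, in percent, for the 10 groups (F, female; M, male). Tuba4a and Tubb4b hold the largest share in every group, and the share of Tubb4b is 73.6% in female C26-PTX against 77.8% in female C26-Saline.

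The mitotic kinesins, which build and run the spindle, were near the detection limit. The sums of the 6 over their back-transformed values (2 to the power of the log2 value) lay between 2.09 and 4.24 in female PBS-Saline, C26-Saline and C26-PTX muscle and between 1.46 and 3.20 in the same male groups. Kifc1 had no counts in 15 of the 73 libraries, Kif22 in 3 and Kif18a in 2. A mean log2 of 1 or more was reached by 47 of the 69 members, and no mitotic kinesin was among them. Other low members were Tubb1, a beta tubulin of platelets and megakaryocytes (no counts in 9 libraries), Kif28 (3 libraries) and Stmn4 (2 libraries).

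The tumour was compared with PBS first, because every drug arm carries it. In males, 12 of the 69 members changed between C26-Saline and PBS-Saline: 7 rose and 5 fell. That is 17.4% of members, against 26.1% of all genes of the table in this comparison, 13.1% rising and 13.0% falling (limma, Benjamini-Hochberg adjusted p under 0.05, as for every call below). The risers were the tubulins Tuba1c, Tubb4b, Tubb5 and Tubb6, the dynein-1 heavy chain Dync1h1, the dynein-1 light intermediate chain Dync1li1, and the kinesin Kif28. The fallers were Dynll2, Stmn4 and the kinesins Kif3c, Kif16b and Kif26b. The median log2 change over the 69 members was -0.05, against 0.00 over all genes.

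Tuba1c rose most clearly among the tubulins. Its log2 values in males were lowest 1.44, median 2.12 and highest 2.41 in PBS-Saline, and 2.50, 3.23 and 4.36 in C26-Saline. Every tumour library lay above every control, and the groups did not overlap, as for 4.90% of all genes. The change was 1.30 ± 0.21 (SE) on the log2 scale, a 2.47-fold rise (adjusted p = 2.26e-06). In females Tuba1c rose too, by 0.81 ± 0.23 (adjusted p = 0.0166). All 7 female tumour libraries were above the control mean, although the groups overlapped. Without female C26-Saline replicate 6, the female call was lost (0.67 ± 0.23, adjusted p = 0.0870).

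Tuba1c is the smallest part of the alpha tubulin pool, at 0.479 ± 0.109% (SD, n = 8) of alpha tubulin mRNA in male PBS-Saline and 1.37 ± 0.688% (n = 8) in C26-Saline. The abundant Tuba4a changed by -0.13 ± 0.16 (adjusted p = 0.597) and Tuba8 by -0.21 ± 0.15 (adjusted p = 0.320). Summed over Tuba1a, Tuba1b and Tuba1c, whose reads are hard to separate, summed back-transformed values were 68.3, 77.4 and 98.8 (lowest, median, highest) in male PBS-Saline and 73.9, 98.9 and 122.9 in C26-Saline, and the groups overlapped.

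Among beta tubulins, Tubb4b in males was 7.25, 7.59 and 8.03 in PBS-Saline and 7.40, 8.22 and 8.82 in C26-Saline, a change of 0.57 ± 0.19 (adjusted p = 0.0230). Tubb6 went from 3.28, 3.65 and 3.96 to 3.56, 4.53 and 4.94, a change of 0.74 ± 0.23 (adjusted p = 0.0111). Tubb5 changed by 0.39 ± 0.14 (adjusted p = 0.0356). For each of the 3 genes, 7 of 8 tumour libraries lay above the control mean and the groups overlapped. Leaving out a library could end 2 of these calls: Tubb4b without male PBS-Saline replicate 1 or C26-Saline replicate 1 or 6 (adjusted p 0.0531 to 0.0720), and Tubb5 without any one of 8 libraries (male PBS-Saline replicates 1, 5, 6 and 7, C26-Saline replicates 3, 5, 7 and 8; adjusted p 0.0540 to 0.0993). On the same scale beta tubulin mRNA in all was 212.6, 259.0 and 343.1 in male PBS-Saline and 228.8, 382.7 and 540.4 in C26-Saline. Alpha tubulin mRNA in all was 916.4, 1063 and 1446 against 808.6, 1013 and 1197, with the lower median in the tumour group.

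**Figure D2:**
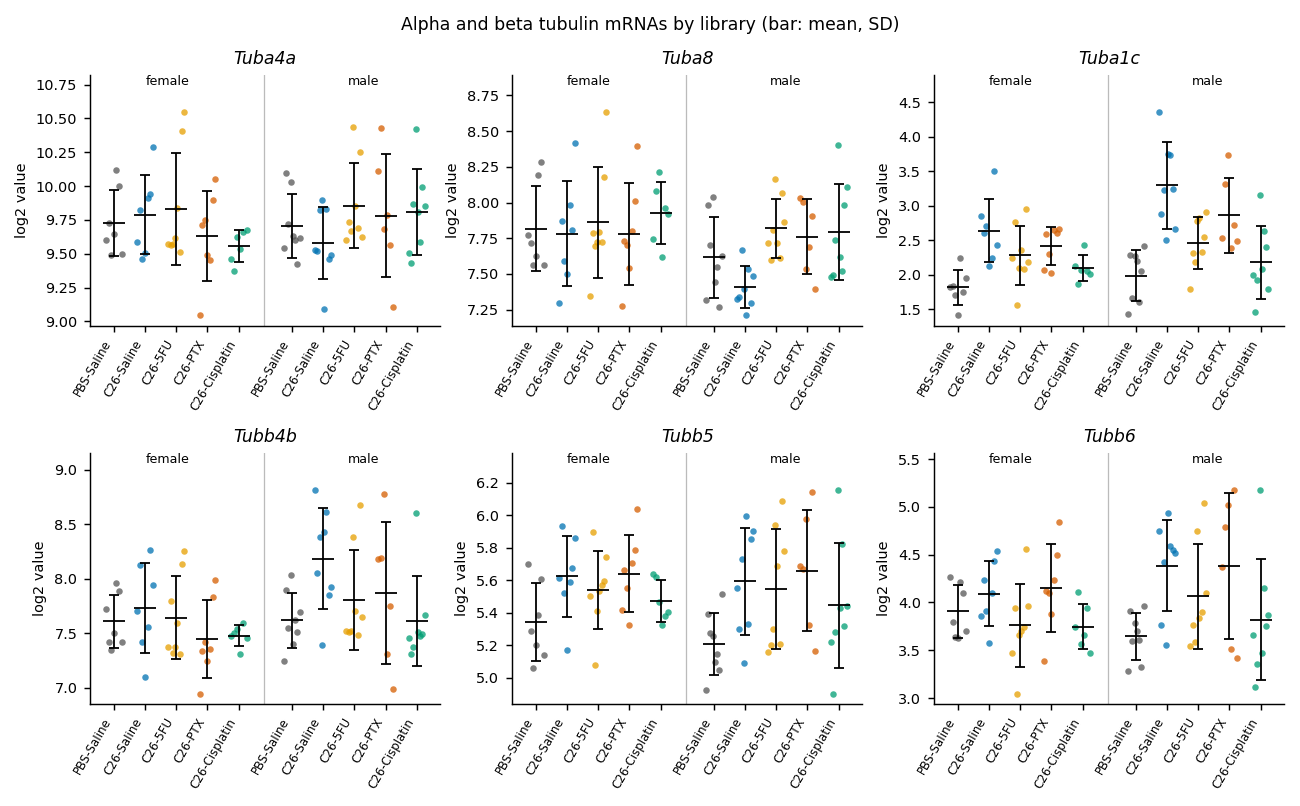
Log2 value of 6 tubulin mRNAs in each of the 73 libraries (points), by sex and treatment, with the group mean and SD (bars). Male C26-Saline libraries for Tuba1c (2.50 to 4.36) lie above all male PBS-Saline libraries (1.44 to 2.41), while Tuba4a and Tuba8 overlap between all groups.

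In the dynein family the tumour went with opposite changes in different subunits. Dynll2, a light chain that links dynein and myosin V to cargo, was 8.05, 8.14 and 8.45 in male PBS-Saline and 6.59, 7.16 and 7.89 in C26-Saline. The groups did not overlap, and the fall was 2.01-fold, a log2 change of -1.01 ± 0.18 (adjusted p = 1.04e-05). Its paralogue Dynll1, 81.1% identical in coding sequence, was not called (4.52, 5.13 and 5.45 against 4.48, 5.49 and 6.19). Dync1h1, which holds the motor, changed by 0.43 ± 0.13 (adjusted p = 0.00765). Dync1li1, which binds cargo adaptors, changed by 0.34 ± 0.08 (adjusted p = 0.000646), with all 8 tumour libraries above the control mean. None of the 4 dynein-2 subunits, which serve the cilium, was called.

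Among kinesins, Kif3c, a subunit of the kinesin-2 group, was 5.20, 5.36 and 5.71 in male PBS-Saline and 4.40, 4.90 and 5.68 in C26-Saline, a change of -0.52 ± 0.15 (adjusted p = 0.00540). Kif16b, which carries early endosomes, changed by -0.40 ± 0.10 (adjusted p = 0.00165), with all 8 tumour libraries below the control mean. Kif28 rose by 1.86 ± 0.55 (adjusted p = 0.00754) from a median of 2.52 estimated counts to 18.3, and Kif26b fell by 0.90 ± 0.32 (adjusted p = 0.0263) from a median of 16.5 counts to 12.5. Kif26b lost its call without male PBS-Saline replicate 1 or 2 or C26-Saline replicate 1 or 6 (adjusted p 0.0593 to 0.101). Stmn4, a neuronal stathmin, fell by 2.41 ± 0.48 (adjusted p = 7.32e-05) with no overlap, but from a median of 13.5 counts to 3.50, and 1 of 8 tumour libraries had none. It fell in females as well, by 1.89 ± 0.51 (adjusted p = 0.0138).

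**Figure D3:**
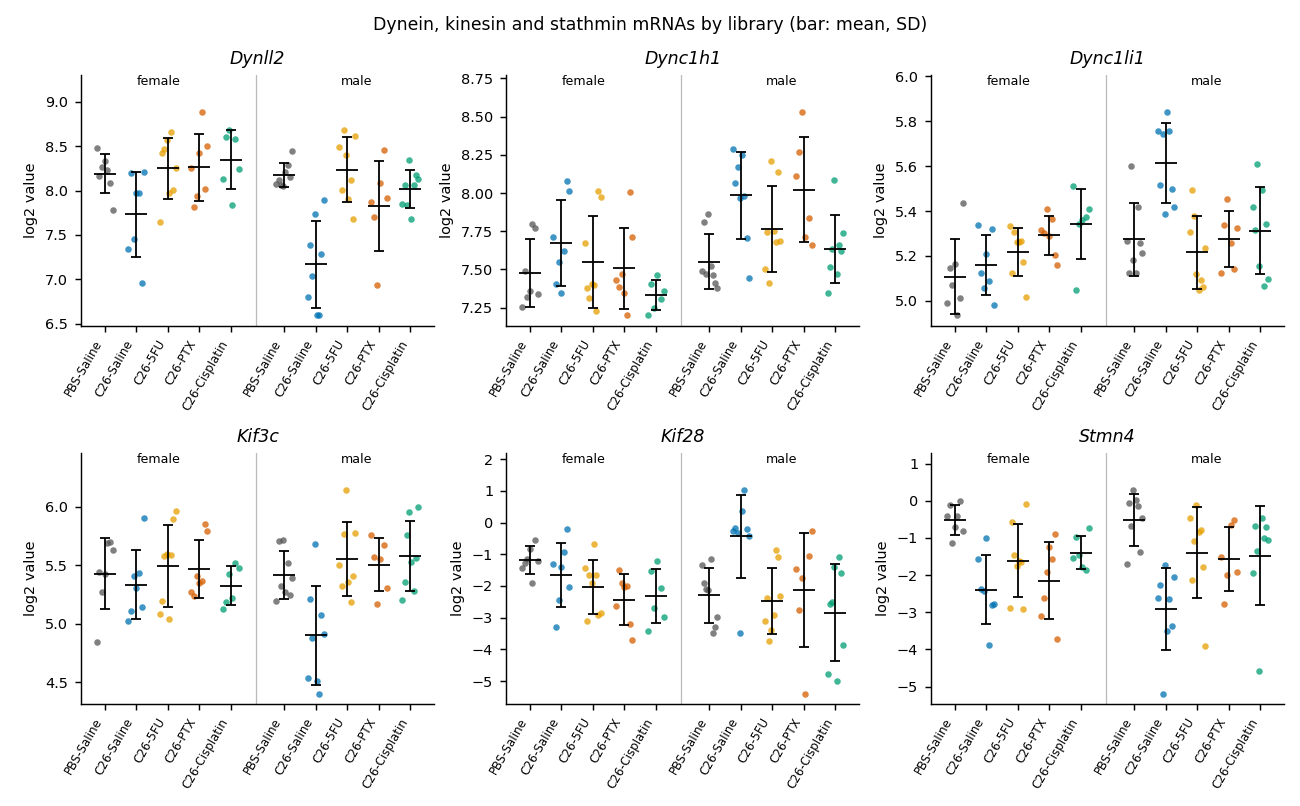
Log2 value of 3 dynein subunits, 2 kinesins and Stmn4 in each of the 73 libraries (points), by sex and treatment, with the group mean and SD (bars). In males Dynll2 and Stmn4 are lower in all C26-Saline libraries than in all PBS-Saline libraries, and Dync1li1 is higher in C26-Saline (5.39 to 5.84) than in most libraries of the other male arms.

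In females the tumour comparison called 3 of 69 members, against 6.70% of all genes (4.14% rising, 2.56% falling): Tuba1c and the neuronal kinesin Kif5a rose and Stmn4 fell. Kif5a changed by 0.80 ± 0.24 (adjusted p = 0.0275) from a median of 16.0 counts to 29.0, and lost its call without female PBS-Saline replicate 4 or 5 or C26-Saline replicate 1 or 2 (adjusted p 0.0550 to 0.137). The difference between the sexes was tested itself, as an interaction. It called none of the 69 members in limma, against 0.0361% of all genes. An unadjusted p under 0.05 was reached by 3 members, and the share of all genes at that p is not given. In this fit the longer male list is not shown to differ from the female one. The smallest p was that of Kif28 (2.32 ± 0.81, adjusted p = 0.319). With quality weights, which give less weight to libraries far from their group, only Kif28 was called (2.71, adjusted p = 0.0187), against 1.84% of all genes. Whether Kif28 differs between the sexes depends on this setting.

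Markers of some other cell types moved with the same comparison. Of 9 measured neutrophil markers, 9 rose in males and 8 in females, against 13.1% and 4.14% of all genes. Their summed back-transformed values were 4.81, 5.66 and 19.4 (lowest, median, highest) in male PBS-Saline and 30.9, 117.9 and 458.3 in C26-Saline. Of 15 macrophage markers, 13 rose in males, from sums of 79.4, 103.0 and 115.8 to 106.3, 194.0 and 283.1. The summed values of 12 satellite cell markers were 2662, 3103 and 4008 in male PBS-Saline and 4575, 4820 and 5880 in C26-Saline, with no overlap, and 3354, 6973 and 8521 in male C26-PTX. Of these 12, 3 rose and 2 fell with the tumour, and the list includes Des, which muscle fibres also express. Of 13 genes of mature muscle fibres, 3 fell in males with tumours. In male C26-PTX against C26-Saline 6 of them rose, against 13.5% of all genes, in a comparison that followed base composition (below). Of 14 genes of denervated or immature fibres, 8 rose and 1 fell in males with tumours. Of all genes, 13.1% rose and 13.0% fell in that comparison. Sums of Schwann and neuron markers were 115.2, 134.0 and 393.1 in male PBS-Saline and 71.2, 182.2 and 518.8 in C26-Saline. Endothelial sums were 368.9, 458.6 and 503.3 against 397.0, 486.0 and 637.1. Fibroblast sums were 1038, 1516 and 2283 against 1078, 1252 and 2101. Cell-cycle sums were 42.7, 50.0 and 65.2 against 36.8, 41.7 and 47.0. The groups overlapped for each of these. No gene of these lists was at 0 in all libraries, and the part of any of these lists in the tubulin and motor changes was not tested.

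Genes that work with the members were followed as 6 further lists, here as counts of risers and fallers in males with tumours. They were 3 and 4 of 22 dynactin and dynein adaptor genes, 3 and 0 of 13 kinesin light chains and adaptors, and 6 and 7 of 37 microtubule-binding genes. They were 2 and 7 of 28 tubulin-modifying and severing genes, 3 and 5 of 24 tubulin-folding and mRNA-control genes, and 1 and 4 of 24 nucleation genes, against 13.1% rising and 13.0% falling over all genes. Trak1, which ties mitochondria to both motors, fell by 0.86 ± 0.14 (adjusted p = 1.09e-06), and Tacc2 rose by 1.94 ± 0.32 (adjusted p = 2.55e-06). The chaperonin subunits Cct4 and Cct2, which fold tubulin and actin, rose by 0.46 ± 0.09 (adjusted p = 6.34e-05) and 0.39 ± 0.09 (adjusted p = 0.000583). Ttc5, the factor that recognises nascent tubulin, fell by 0.38 ± 0.10 (adjusted p = 0.00406).

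Paclitaxel, the drug that binds microtubules, was then compared with saline among tumour-bearing females. None of the 69 members was called in limma, and 0% of all genes were. At an unadjusted p under 0.05 stood 2 members and 845 genes. The alpha and beta tubulins whose mean log2 was 3 or more changed by between -0.29 (Tubb4b) and 0.17 (Tuba1a). The 95% interval of the change was -0.70 to 0.13 for Tubb4b, -0.49 to 0.17 for Tuba4a, -0.31 to 0.31 for Tuba8 and -0.29 to 0.32 for Tubb5. A change as large as that of Tuba1c in male tumour muscle lies outside each of these intervals. The interval of Tubb4b does hold -0.57, the size of its called change with cisplatin in males. The 3 members with the smallest p were Dynll2 (0.53 ± 0.19, adjusted p = 0.613), Kif16b (-0.24 ± 0.11, adjusted p = 0.774) and Kif7, a kinesin of hedgehog signalling (0.50 ± 0.26, adjusted p = 0.834).

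The mix of beta tubulin mRNAs in females given paclitaxel is given as a description. Tubb4b held 74.95 to 83.29% of beta tubulin mRNA over the 7 female C26-Saline libraries and 72.56 to 75.39% over the 7 C26-PTX libraries. Tubb5 held 8.37 to 12.10% and 10.65 to 15.18%, and Tubb6 4.88 to 6.55% and 5.60 to 7.58%. In males the share of Tubb4b was 75.9 to 87.0% in C26-Saline and 67.1 to 82.7% in C26-PTX. The ranges of the groups overlap for each gene in each sex.

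Against PBS-Saline, female C26-PTX muscle had 2 called members, both lower, against 4.58% of all genes (2.89% higher, 1.69% lower). Kif16b was 5.07, 5.30 and 5.52 in PBS-Saline and 4.48, 4.89 and 5.03 in C26-PTX. These groups did not overlap (1.90% of all genes), and the change was -0.53 ± 0.11 (adjusted p = 0.00101). The other was Stmn4 (-1.64 ± 0.51, adjusted p = 0.0483), which lost its call on leaving out any of 10 libraries (adjusted p 0.0640 to 0.162). In males Kif16b was also lower in C26-PTX than in PBS-Saline, by 0.49 ± 0.11 (adjusted p = 0.000975).

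In males, C26-PTX differed from C26-Saline in 26 of 69 members, 13 higher and 13 lower. This was 37.7% of members against 31.9% of all genes (13.5% higher, 18.5% lower). No alpha or beta tubulin was among them. Both gamma tubulins rose, Tubg1 by 0.40 and Tubg2 by 0.84. Of the cofactors Tbcb and Tbcc rose and Tbca and Tbce fell. The dynein-1 subunits Dync1i2, Dync1li1 and Dync1li2 fell. Among light chains Dynll2 and Dynlrb1 rose, while Dynll1, Dynlt1c and Dynlt3 fell. Of the kinesins outside mitosis, Kif1c, Kif3c, Kif13a, Kif26a, Kif26b and Kifc3 rose and Kif1b, Kif2a, Kif5b and Kif28 fell. The remaining calls were Stmn4, higher, and Kif18a, lower.

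The smallest adjusted p belonged to Kif1c. It was 9.81, 9.98 and 10.6 in male C26-Saline and 10.3, 10.6 and 10.9 in C26-PTX, a change of 0.54 ± 0.13 (adjusted p = 0.00250). Dync1i2, the dynein intermediate chain, changed by -0.61 (adjusted p = 0.00473). Kif5b, the ubiquitous heavy chain of kinesin-1, changed by -0.60 ± 0.19 (adjusted p = 0.0113), and Tbca, which holds beta tubulin before dimer assembly, by -0.76 (adjusted p = 0.00963). Leaving out male C26-PTX replicate 1 lowered the 26 calls to 16, and leaving out replicate 5 lowered them to 12. The share of all genes called in these fits is not given. The calls of Dynll2 (adjusted p = 0.0522), Kif5b (0.0560) and Kif2a (0.0771) were lost without replicate 5, and those of Tbce (0.0609) and Kif2a (0.0556) without replicate 1.

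The male paclitaxel changes followed the base composition of the transcripts. Of the 26 called members, 13 of the 14 with a transcript above 50% G and C bases (GC) rose, and 12 of the 12 below 50% fell. Kif28 was the exception. The median GC was 56.7% in the risers and 44.1% in the fallers. Across the 69 members Pearson's r between GC and the log2 change was 0.69, and across all genes it was 0.65, which describes genes in 1 comparison and not replicates. For the tumour in males the same r over the members was -0.06, with a median GC of 53.7% in risers and 53.1% in fallers. For paclitaxel in females it was 0.13.

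The first 90 coding bases of 4 members show the contrast: the 2 called fallers with the lowest transcript GC and the 2 called risers with the highest. G and C are in capitals.
Kif18a: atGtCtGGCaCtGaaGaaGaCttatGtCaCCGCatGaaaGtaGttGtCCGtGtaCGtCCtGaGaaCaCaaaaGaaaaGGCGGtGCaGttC
Dynlt3: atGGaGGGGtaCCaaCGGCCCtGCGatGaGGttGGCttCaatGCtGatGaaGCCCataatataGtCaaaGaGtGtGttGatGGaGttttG
Tbcc: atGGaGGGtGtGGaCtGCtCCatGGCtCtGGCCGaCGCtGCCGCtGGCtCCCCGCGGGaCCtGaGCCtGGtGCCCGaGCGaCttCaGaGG
Kif26a: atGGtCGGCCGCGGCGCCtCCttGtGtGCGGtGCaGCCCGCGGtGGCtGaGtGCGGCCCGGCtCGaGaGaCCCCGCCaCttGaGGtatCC
Over the whole coding sequence GC was 39.3% in Kif18a and 45.6% in Dynlt3, against 63.7% in Tbcc and 64.0% in Kif26a. The fallers changed by -1.44 (Kif18a, adjusted p = 0.0243) and -0.88 (Dynlt3, adjusted p = 0.0357), and the risers by 0.65 (Tbcc, adjusted p = 0.0146) and 0.75 (Kif26a, adjusted p = 0.0204).

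**Figure D4:**
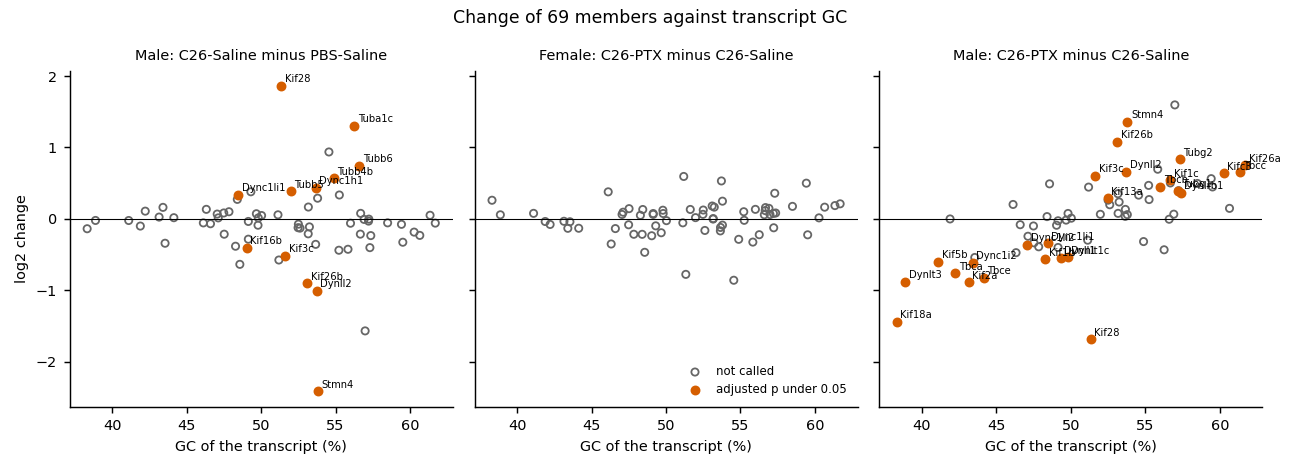
Log2 change of each of the 69 members against the GC content of its transcript in percent, for the tumour in males (left), paclitaxel in females (middle) and paclitaxel in males (right); filled points are called at adjusted p under 0.05. Only the right panel shows low-GC members falling and high-GC members rising, with r = 0.69 over the members.

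A slope on GC was computed for each library over 10590 genes outside the members with a mean log2 of 1 or more. It was fitted to deviations from each gene's mean over the libraries, together with transcript length. Its unit is log2 per SD of GC. The slope exceeded 0.1 in 4 of 6 male C26-PTX libraries and in 0 of 8 male C26-Saline libraries, with means of 0.27 ± 0.26 and -0.10 ± 0.06 (SD). It exceeded 0.1 in 2 of 7 female C26-PTX, 4 of 8 male C26-5FU and 2 of 8 male PBS-Saline libraries, and in 19 of all 73. Dynlt3 shows what this means per library: it was 4.49 to 5.20 in male C26-Saline, 3.13 to 3.51 in the 4 C26-PTX libraries of high slope, and 4.67 to 4.85 in the other 2. Tbcc was 2.24 to 2.77, 3.22 to 3.65 and 2.39 to 2.61 in the same sets. Over the 26 called members, 75 of 104 values of the high-slope libraries lay outside the C26-Saline range, on either side, and 17 of 52 values of the other 2 libraries did. These members were picked by their call in this comparison, where 4 of 6 libraries have a high slope. The counts therefore only describe, and the values are not independent.

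The comparison was refitted in 3 ways: with the GC slope as a covariate, with a trend on GC and length subtracted from each library, and without the libraries of slope above 0.1. With these, 4, 7 and 4 members were called, against 3.59%, 12.1% and 5.21% of all genes, and none of the 26 was called in all 3. Only 2 C26-PTX libraries enter the last fit. Dynll2, at 53.7% GC, lost its call in all 3 fits (adjusted p 0.0626 to 0.0699), with changes of 0.64, 0.51 and 0.83. Kif26b had changes of 1.00, 1.01 and 1.61, and was called in the last 2 fits. Kif2a, by contrast, went from -0.89 to 0.08 with the covariate.

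**Figure D5:**
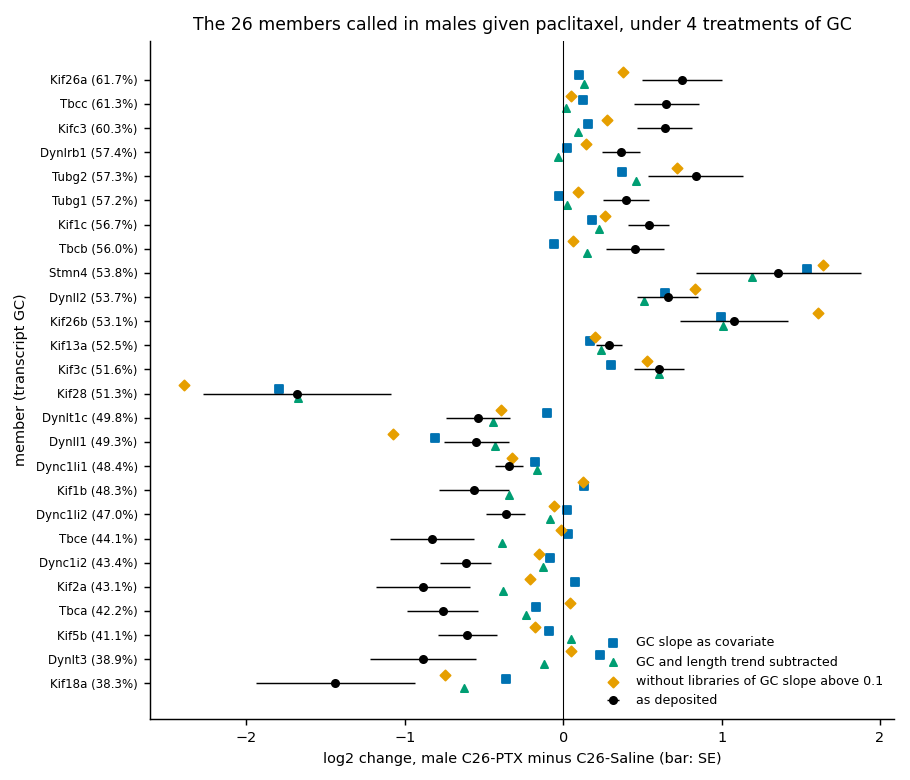
Log2 change, male C26-PTX minus C26-Saline, of the 26 called members ordered by transcript GC: as deposited (black, SE bars), with the GC slope as covariate (squares), with a GC and length trend subtracted (triangles) and without libraries of GC slope above 0.1 (diamonds). Members at both ends of the GC range move toward 0 in the 3 refits, while Dynll2, Kif26b, Stmn4 and Kif28 in the middle lie near or beyond their deposited change; Dynll2, Stmn4 and Kif28 are not called in any of the refits.

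Tubb4b behaved the other way. As deposited it was 6.99, 7.97 and 8.78 in male C26-PTX, overlapping C26-Saline, with a change of -0.32 ± 0.21 (adjusted p = 0.241). It was lower and called in each of the 3 refits, by -0.81 (adjusted p = 0.00976), -0.55 (adjusted p = 0.0247) and -1.03 (adjusted p = 0.00605). Tuba4a changed by 0.20 ± 0.17, Tuba8 by 0.35 ± 0.16 (adjusted p = 0.0769) and Tubb5 by 0.06 ± 0.15 as deposited.

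Against PBS-Saline, male C26-PTX muscle had 12 members higher and 12 lower, 34.8% of members against 37.5% of all genes (16.9% higher, 20.6% lower). Here Tuba1b rose by 0.61 ± 0.18 (adjusted p = 0.00788), Tuba1c by 0.87 ± 0.23 (adjusted p = 0.00366), Tubb5 by 0.45 ± 0.15 (adjusted p = 0.0190) and Tubb6 by 0.74 ± 0.25 (adjusted p = 0.0176). Tubb5 lost its call without male C26-PTX replicate 3 or 5 (adjusted p = 0.0639 and 0.0841), and Tubb6 without replicate 2, 3 or 5 (adjusted p 0.0542 to 0.0807). Without the high-slope libraries the change of Tubb6 was -0.11. The median GC was 56.6% in risers and 43.5% in fallers, and r over the members was 0.73. None of the 24 was called in all 3 GC refits. Those refits called 9.17%, 20.4% and 0.0722% of all genes. The last holds only 2 C26-PTX libraries, so the failure to pass all 3 cannot decide about single members. Kif16b, the member with the smallest adjusted p, was called in the first 2 refits (adjusted p = 0.0249 and 0.00931). Leaving out male C26-PTX replicate 1, 3 or 5 lowered the 24 calls to 12, 14 and 12. The share of all genes called in these fits is not given.

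The other drugs place these values. 5-Fluorouracil against C26-Saline called 14 members in males, 11 higher and 3 lower, against 23.3% of all genes (11.3% and 12.0%), and 8 of the 14 were called in all 3 GC refits. Cisplatin called 11, 5 higher and 6 lower, against 15.9% (7.66% and 8.23%), and all 11 were called in the 3 refits. Over all genes the refits called 22.2%, 23.6% and 17.8% for 5-fluorouracil, and 28.6%, 24.5% and 24.6% for cisplatin. The share of all genes called in all 3 at once is not given, so keeping a call is no trait shown for the members. In males without 5-fluorouracil replicate 4 the 5-fluorouracil count was 9, and without C26-Saline replicate 5 the cisplatin count was 7. Shares of all genes in these single-library fits are not given. In females neither drug called a member in limma, against 1.35% (0.152% higher, 1.20% lower) and 1.66% (0.346% higher, 1.31% lower) of all genes, with 2 and 10 members at an unadjusted p under 0.05. The share of all genes at that p is not given, so the last counts are no result about the members. The smallest female p again belonged to Dynll2, at 0.52 ± 0.18 for 5-fluorouracil (adjusted p = 0.190) and 0.62 ± 0.20 for cisplatin (adjusted p = 0.0861).

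The 12 members that changed with the tumour in males can be read across the drugs. All these comparisons share the C26-Saline libraries, so the values are given side by side only. Dynll2, at a median of 7.16 in C26-Saline, was 8.26 in C26-5FU, 7.90 in C26-PTX and 8.06 in C26-Cisplatin, near the PBS-Saline median of 8.14. Its changes from C26-Saline were 1.07 ± 0.18 (adjusted p = 1.56e-05), 0.66 ± 0.19 (adjusted p = 0.00893) and 0.85 ± 0.18 (adjusted p = 0.000393). Kif3c changed by 0.66 (adjusted p = 0.000953), 0.60 (0.00481) and 0.68 (0.000640) in the same order. Dync1li1 changed by -0.40 (0.000224), -0.34 (0.00367) and -0.30 (0.00505).

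Tuba1c had a median of 3.23 in male C26-Saline, 2.44 in C26-5FU, 2.63 in C26-PTX and 2.04 in C26-Cisplatin. It fell with 5-fluorouracil by 0.83 (adjusted p = 0.00323) and with cisplatin by 1.11 (adjusted p = 0.000109). With paclitaxel the change was -0.43 ± 0.23 and did not pass, with a 95% interval of -0.89 to 0.03. Compared directly, C26-PTX minus C26-5FU was 0.40 ± 0.23 (adjusted p = 0.688) and C26-PTX minus C26-Cisplatin 0.68 ± 0.23 (adjusted p = 0.0924), and neither passed. With quality weights the second was 0.85 (adjusted p = 0.0173), and over the other settings its adjusted p was 0.0554 to 0.999. Tubb4b fell with cisplatin by 0.57 ± 0.19 (adjusted p = 0.0333). That call was lost on leaving out any one of 9 libraries (male C26-Saline replicates 1, 3, 5 and 6, C26-Cisplatin replicates 1, 2, 3, 6 and 7; adjusted p 0.0514 to 0.101). With 5-fluorouracil Tubb4b changed by -0.38 (adjusted p = 0.146). Kif28 fell with 5-fluorouracil (-2.03), paclitaxel (-1.68) and cisplatin (-2.40), with a median of 6.07 counts or fewer in each male drug group. Kif16b, Tubb5 and Tubb6 were called with no drug against C26-Saline in males, and Dync1h1 was called with cisplatin only.

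Neutrophil markers followed the same arms in males. Their sums had a median of 117.9 in C26-Saline, 43.2 in C26-PTX, 16.3 in C26-5FU and 15.9 in C26-Cisplatin. All 9 fell with 5-fluorouracil and with cisplatin, and 1 of 9 fell with paclitaxel. Of all genes, 12.0%, 8.23% and 18.5% fell in the same order. Macrophage sums had medians of 194.0, 197.7, 144.0 and 130.9 in the same order. The part of these cells in the changes of Tuba1c, Tubb4b and Dynll2 was not tested.

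Whether paclitaxel differs from the other drugs was tested directly. In males C26-PTX against C26-5FU called 0 of 69 members in limma (4 at an unadjusted p under 0.05), with 0.0144% of all genes called. C26-PTX against C26-Cisplatin called 0 (19 unadjusted), also with 0.0144% of all genes. The latter count moved with single libraries: it was 14 without male C26-PTX replicate 4 or 6, and 20 without C26-Cisplatin replicate 4. With quality weights it was 25, against 31.3% of all genes. Shares of all genes are not given for the single-library fits or at the unadjusted p, so those counts are no result about the members. In females both comparisons called 0 members, against 0.188% (0.180% higher, 0.00722% lower) and 0.0217% (0.0144% higher, 0.00722% lower) of all genes. The smallest p in females was that of Kif16b in both, -0.37 ± 0.11 against C26-5FU (adjusted p = 0.110) and -0.38 ± 0.11 against C26-Cisplatin (adjusted p = 0.202). All 7 female C26-PTX libraries were below the mean of the other drug group in each.

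The sexes' responses to paclitaxel were compared as an interaction. It called 0 of the 69 members in limma and 0% of all genes, with 14 members at an unadjusted p under 0.05. The share of all genes at that p is not given, so the 14 are no result about the members. The smallest adjusted p among members was 0.226, shared by Dync1li1, Dync1li2, Kif5b, Kifc2 and Kifc3. With quality weights, which give less weight to libraries far from their group, the same interaction called 16 members against 26.8% of all genes, Dync1li1 with the smallest adjusted p among them (0.00360). Whether the male and female responses of the members differ as deposited therefore depends on this setting, which holds no GC correction. Across the members r between GC and this interaction was 0.68. In each GC refit (slope as covariate, trend subtracted, high-slope libraries left out) the interaction called 0% of all genes, so no member was called. With the GC slope as covariate, Dync1li1 went from -0.47 to -0.33, Dync1li2 from -0.43 to -0.07 and Kif5b from -0.68 to -0.21. Kifc2 went from 0.67 to 0.27 and Kifc3 from 0.63 to 0.18. Quality weights and a GC correction were not tested together.

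The genes that work with the members were followed under paclitaxel too. In females none of the 6 lists held a called gene against C26-Saline. As 0% of all genes were called there, this is no result about the lists. In males, tubulin-folding and mRNA-control genes had 2 risers and 11 fallers of 24, nucleation genes 2 and 8 of 24, microtubule-binding genes 4 and 8 of 37, tubulin-modifying genes 7 and 4 of 28, dynactin and adaptors 4 and 5 of 22, and kinesin light chains and adaptors 5 and 3 of 13. Of all genes in this comparison, 13.5% were higher and 18.5% lower. Trak1 rose by 0.77 ± 0.15 (adjusted p = 0.000500), Cct2 fell by 0.46 ± 0.10 (adjusted p = 0.00101), and the dynein regulator Pafah1b1 fell by 0.57 ± 0.13 (adjusted p = 0.00200). These list counts are from the values as deposited, with no GC correction.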

How the data were processed

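Total RNA of gastrocnemius was sequenced as paired-end Illumina libraries, per the labels' protocols. The authors deposited 1 table of 13856 genes as normalised log2 values. The submitters' processing notes name the mm39 build and, without versions, limma, edgeR, Salmon, fastp, FastQC and MultiQC. The shape of the low values is that of scaled log2 counts with a small offset, and estimated counts were recovered from it. The 73 libraries held an estimated 11.39 M to 40.47 M counts, and 55 to 361 genes per library were at 0. Precision at low counts is limited by counting, and the replicate spread is given as SD or SE.

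One library whose title and treatment label disagree was left out (1 column unused), and female PBS-Saline replicate 8 was not analysed here. Groups came from the titles. All labels give the same batch. The main test was limma 3.58.1 (trend, R 4.3.3) on all 13856 genes and all 10 groups, with 63 residual degrees of freedom and Benjamini-Hochberg adjustment over all genes at 0.05. It was run on simulated data with independent noise per gene and library. Those data held no GC trend shared within a library, so the run does not bear on that trend. Alternatives were a filter at a mean log2 value of 1, quality weights, the compared groups only, a replicate block, quantile normalisation, 3 GC settings and leaving out each library. GC content and length came from GENCODE vM21 (GRCm38), which is not the authors' build, so no coordinates are given. Each library's GC slope was computed over 10590 genes, and shares of tubulins are per transcript length.

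Same-numbered female C26-PTX and C26-Saline libraries deviated together in all 7 pairs (r 0.156 to 0.80). The block left that comparison at 0 called members. Members and gene lists were chosen with earlier results of these data known. Values were given for up to 6 called members per direction with the smallest adjusted p, for the 3 with the smallest p where none was called, and for alpha and beta tubulins whose mean log2 was 3 or more. Other members are named for their role and were chosen after their values were seen.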

Additional observations from a re-analysis of the deposited data

Results flagged for a closer look

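For 20 members and the GC slope, the highest or lowest library of each group was compared with the rest of its group by Dixon's criterion; 210 groups of values were searched in all, and chance flags about 1 in 20 groups. In females, Kif1c was far above the other C26-Saline libraries in replicate 7 (log2 value 10.86), as were Dynlrb1 (5.955) and the GC slope (0.4525) of the same library. Kif1c was lowest in C26-Cisplatin replicate 1 (10.1), Dync1li1 was lowest in C26-Cisplatin replicate 2 (5.05), and Kif26b was lowest in C26-PTX replicate 1 (-0.5729). In males, Kif1c was highest in C26-5FU replicate 4 (11.02) and Kif28 was lowest in C26-Saline replicate 4 (-3.48). In male C26-Cisplatin replicate 4, Tubb4b was far above the group (8.602) and Stmn4 far below it (-4.569). Without that library the male comparison of C26-PTX with C26-Cisplatin called 20 members instead of 0. The share of all genes called in that fit is not given.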

How the results depend on the processing

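Counts of called members moved with some settings, and the cause was not tested. With the mean log2 filter, the female tumour comparison called 1 and female C26-PTX against PBS-Saline 1. The share of all genes called with the filter is not given. With quality weights, the counts, with the share of all genes called, were 5 (female tumour; 14.8%), 1 (female C26-5FU; 7.12%), 9 (female C26-Cisplatin; 16.8%), 8 (female C26-PTX against PBS-Saline; 13.8%), 3 and 25 (C26-PTX against C26-Cisplatin, females and males; 5.25% and 31.3%), and 1 and 16 (interactions of sex with tumour and with paclitaxel; 1.84% and 26.8%). With the GC covariate they were 5 (female tumour; 13.9%), 1 (female C26-Cisplatin; 3.04%), 8 (female C26-PTX against PBS-Saline; 9.61%), 20 (male tumour; 40.7%), 4 (male C26-PTX against C26-Saline; 3.59%), 17 (male C26-Cisplatin; 28.6%) and 3 (male C26-PTX against PBS-Saline; 9.17%). With the GC and length trend subtracted they were 2, 5, 19, 7 and 8 (female C26-Cisplatin, female C26-PTX against PBS-Saline, male tumour, male C26-PTX against C26-Saline, male C26-PTX against PBS-Saline) and 1 (male C26-PTX against C26-Cisplatin), against 3.88%, 7.55%, 36.5%, 12.1%, 20.4% and 0.0435%. Without high-slope libraries they were 3, 1, 4 and 0 (female C26-Cisplatin, female C26-PTX against PBS-Saline, male C26-PTX against C26-Saline and against PBS-Saline), against 6.54%, 4.93%, 5.21% and 0.0722%. With only the compared groups they were 2, 4, 17 and 6 (female C26-Cisplatin, female C26-PTX against PBS-Saline, male C26-PTX, male C26-Cisplatin), against 4.82%, 4.21%, 21.5% and 7.42%.

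With the replicate block, male C26-PTX against C26-Saline called 29, the male tumour comparison 12 and male C26-PTX against C26-Cisplatin 3. Male libraries of the same number share only that number. The share of all genes called with the block is not given, so these counts are no result about the members. Reversed changes for male C26-PTX against C26-Saline were Kif2a 0.0766 and Tbce 0.03344 (covariate), Kif5b 0.04674 (trend) and Tbca 0.04396 (without high-slope libraries); against PBS-Saline, Tubb2a -0.6375 (covariate) and Tubb6 -0.1126 (without high-slope libraries).

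Leaving out each library gave, in females, 2 to 3 (tumour), 0 to 0 (C26-PTX, C26-5FU), 0 to 1 (C26-Cisplatin; 1 without its replicate 4), 1 to 3 (C26-PTX against PBS-Saline; 1 without PBS-Saline replicate 2, 4, 5, 6 or 7 or C26-PTX replicate 1, 2, 3 or 7) and 0 to 0 against the other drugs. In males it gave 9 to 13 (tumour), 12 to 32 (C26-PTX), 9 to 18 (C26-5FU), 7 to 15 (C26-Cisplatin), 12 to 27 (C26-PTX against PBS-Saline), 0 to 0 (against C26-5FU) and 0 to 20 (against C26-Cisplatin); interactions stayed at 0 to 0. Shares of all genes called in these single-library fits are not given, so the ranges are no result about the members. Depth limits Stmn4, Kif28, Kif26b, Kif5a and the mitotic kinesins, which rest on few counts per library.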
